A study of Mus musculus with 4 samples.

Results

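The genes described here are 34 genes of DNA replication and of the G1/S transition, taken from a list of names and found on the array by gene name or by the current symbol of the RefSeq accession. All 34 had a probe, 42 probes in all among the 55681 on the array. The RNA came from adipocyte progenitors, cells that give rise to fat cells, isolated from the subcutaneous depot of 4-week-old male FVB mice by cell sorting. Wild-type mice gave 2 samples and Adamts1 transgenic mice gave another 2, with 1 Agilent array in 1 colour for each. Adamts1 is a secreted protease of the extracellular matrix. Which promoter drives the transgene, and in which cells, is left unstated in the labels. Nor do they tell whether samples of a genotype are different animals, and p-values here reflect the spread between these samples alone.

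Before S phase, the origin recognition complex together with Cdc6 and Cdt1 loads the helicase subunits Mcm2 to Mcm7 onto replication origins. Mcm10, Cdc45 and the GINS complex then turn the loaded helicase into a moving fork, where polymerases, the sliding clamp Pcna and its loader copy the DNA. E2F transcription factors, released as cyclin E and its kinase phosphorylate the retinoblastoma protein, drive many of these genes in late G1, so their transcripts serve as a readout of cells entering the cycle. Progenitors of fat tissue divide in young animals, and clonal expansion is a known step on the way to new adipocytes.

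Of the 34 genes, 32 could be tested, and none passed an adjusted p of 0.05 in either direction in the limma fit over all 24518 features, where 1.73% of features passed (0.967% higher and 0.759% lower in the transgenic samples). Their values nevertheless lay mostly on 1 side. The transgenic mean was above the wild-type mean for 30 of the 32, against 47.8% of all features, and for 25 genes both transgenic arrays exceeded both wild-type arrays, against 24.5% of all features. For 1 gene, E2f1, both transgenic arrays were below both wild-type arrays, where the share over all features was 28.6%. The median difference was 0.39 on the log2 scale, against -0.016 over all features. At an unadjusted p under 0.05 there were 16 of the 32, all higher in the transgenic samples, against 9.25% of all features higher and 9.76% lower, and 12 were at least 1.5-fold and 2, Tk1 and E2f8, at least 2-fold higher. E2f8 passed the filter on dim probes through the transgenic arrays, and its log2 difference of 1.58 was 0.31 with normexp correction. Since all genes were measured on the same 4 arrays and the members vary together, these counts are not independent events.

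In 6 of the alternative analyses some members passed. These were Cdt1, Chaf1b and Mcm6 with normexp background correction (3 genes, where 2.14% of features passed) and with the replicate number as a block (3 genes, 3.16% of features). With no filter on dim probes Pole joined them (4 genes, 1.45% of features). With the mean over probes Chaf1b passed (1.44% of features). Without wild-type array 1 Mcm6 passed (4.96% of features), and without wild-type array 2 Cdc6 passed as lower and Chaf1b and Mcm6 as higher (15.7% of features).

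Each value below is a normalised log2 signal, the log2 of the background-subtracted intensity minus that array's 75th percentile, so that 0 marks the 75th percentile of its array. Values compare samples for 1 probe and not genes with each other. A probe called well above background had passed the scanner software's own flag. Of the 32 tested genes, 30 were well above background on all 4 arrays. Cdc45 and E2f8 passed through the transgenic arrays, being well above background on 1 of the 2 wild-type arrays. Orc1 and Ccne2 were not well above background on any array and were not tested. With these 2 included, the median difference over the 34 genes was also 0.39. In bulk RNA, fewer cells of a type and less RNA per cell cannot be told apart, so a difference may stand for the number of cycling cells or for the transcript level in each.

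Of the spots, 47.0% to 57.0% were well above background, with the lowest share on wild-type array 1. Progenitor markers were present: all 14 on the list used, among them Pdgfra, Cd34 and Ly6a, passed the background flag on each of the 4 arrays. In the transgenic samples 2 of the 14 fell, and the median difference was -0.25, with 5 higher and 9 lower in the mean. Both transgenic arrays were below both wild-type arrays for 9, against 28.6% of all features, and above them for 4, against 24.5%. Cd34 and Ly6a were among the lower, with log2 differences of -0.39 and -0.41 (adjusted p = 0.175 and 0.163 in the limma fit), and Pdgfra differed by 0.076. Adamts1 itself stood at 6.65 and 6.73 in wild type against 6.77 and 6.82 in the transgenic samples (adjusted p = 0.573), and no source used here tells whether its probe lies in the transgene's cDNA. Some markers of other cells moved with the genotype, while none of 3 tested erythroid markers passed. Of 18 tested macrophage markers 11 rose, with a median difference of 2.15, and 4 of the 11 had passed the filter through the transgenic arrays alone. Their summed signal, in multiples of each array's 75th percentile, was 59.2 and 58.1 in the wild-type and 69.4 and 67.0 in the transgenic samples. That sum adds the levels of different probes and was carried mostly by Itgam, named after its values were seen, at 5.56 and 5.60 against 5.56 and 5.47 in log2 signal, so it understates the change of the dimmer markers. Of the 20 macrophage markers on the list, 5 failed the background flag on both wild-type arrays, among them the defining marker Adgre1, and 2 of these 5 failed it on all 4 arrays. Of 11 tested markers of leukocytes 6 rose, but 5 of these 6 had passed the filter through the transgenic arrays alone, and the median difference was 2.60 over the 11 and 0.36 over the 5 that were above background on all 4 arrays. Of 14 endothelial markers 1 rose, though 11 were higher and 3 lower in the mean. Their median difference was 1.34 over the 14 and 0.67 over the 8 that were above background on all 4 arrays. Of 10 mural cell markers 3 rose and 1 fell, and 1 of the 3 that rose had passed the filter through the transgenic arrays alone. The mural median was 0.62 over the 10 and 0.39 over the 9 that were above background on all 4 arrays. Of 8 adipocyte markers 3 rose (median 1.74). The part of such cells in the replication values was not tested.

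**Figure D1:**
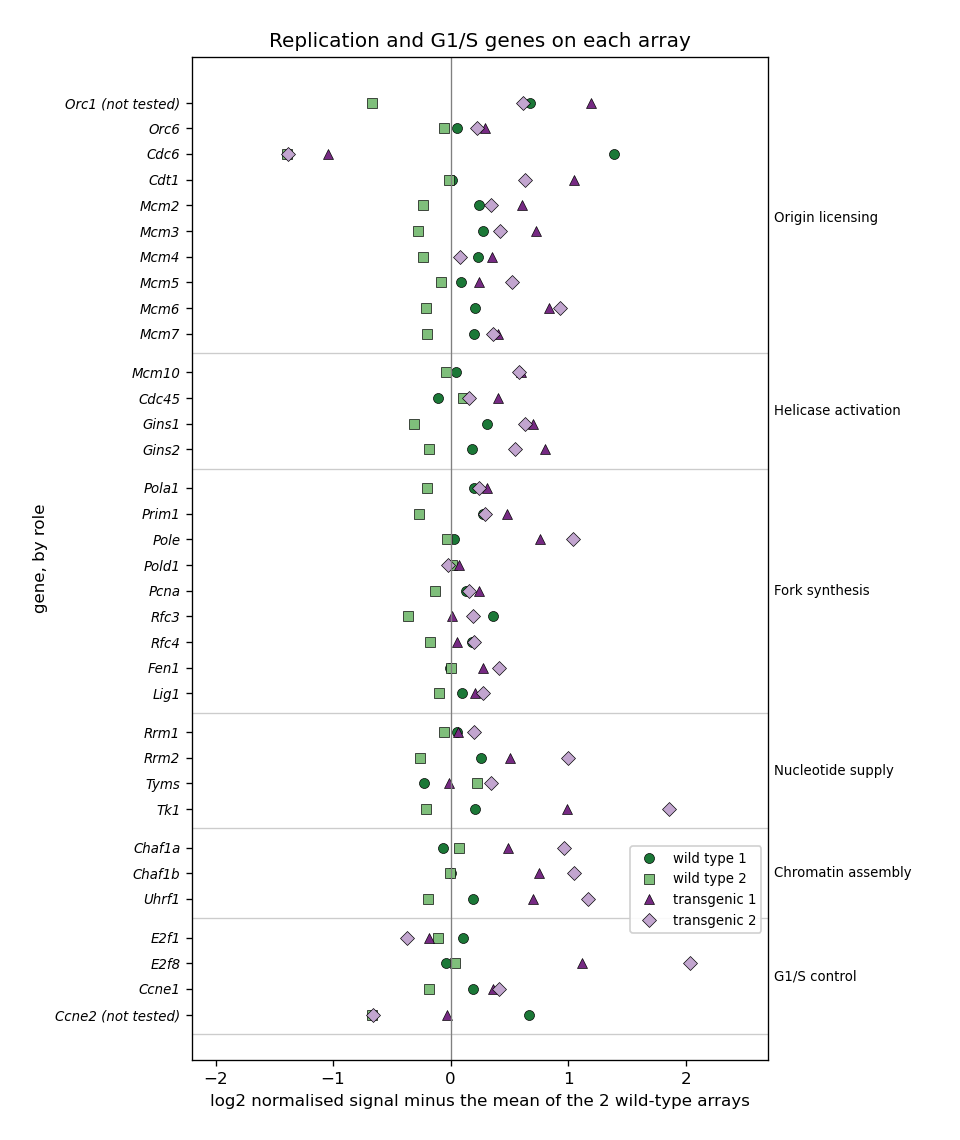
Normalised log2 signal of each of the 34 genes on each array, minus the mean of the 2 wild-type arrays (x axis), with the genes in rows by role. Transgenic arrays lie to the right of both wild-type arrays for 25 of the 32 tested genes, and wild-type array 1 stands far to the right for Cdc6.

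Promoters of helicase genes are shown first, because these genes are textbook targets of E2F, and those printed were chosen for holding a match before the start. Promoter sequences from RefSeq (build GRCm38.p6, from 250 bases before to 50 bases after a start site) matched 29 of the 34 genes by symbol; Ccne2, Gins1, Gins2, Mcm4 and Pole had no entry. Both strands were searched for the E2F letters TTTCCCGC, TTTGGCGC, TTTCGCGC and TTTGCCGC. The 200 bases before the start are printed 5′ to 3′ on the gene's strand, with matches in capitals; a run longer than 8 capitals is a pair of overlapping matches on opposite strands. Not printed are Mcm2 and the other start of Mcm7, which held no such match before the start, and Mcm3, whose 2 matches lay after it.
Mcm6 (chr1:128359706-128359905, minus strand): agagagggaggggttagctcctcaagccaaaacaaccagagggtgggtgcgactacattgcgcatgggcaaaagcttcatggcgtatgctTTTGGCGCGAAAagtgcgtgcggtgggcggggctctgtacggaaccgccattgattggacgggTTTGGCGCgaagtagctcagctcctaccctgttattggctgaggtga
Mcm5 (chr8:75109309-75109508, plus strand): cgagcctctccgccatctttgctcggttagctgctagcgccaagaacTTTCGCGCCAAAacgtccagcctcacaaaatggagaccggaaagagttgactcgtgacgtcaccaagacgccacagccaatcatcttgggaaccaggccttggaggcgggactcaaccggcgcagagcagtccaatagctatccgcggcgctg
Mcm7 (chr5:138171884-138172083, minus strand): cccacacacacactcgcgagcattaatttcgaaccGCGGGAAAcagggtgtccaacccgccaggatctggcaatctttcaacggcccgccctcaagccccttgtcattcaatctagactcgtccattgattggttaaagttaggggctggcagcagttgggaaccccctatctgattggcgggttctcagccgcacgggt

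Of the 29 genes, 12 (41.4%) held at least 1 E2F match in a promoter, against 2.605% of the 27025 genes in the table. The letters CCAAT, the core of the site bound by NF-Y, were in 62.1% of them against 41.1% of all genes. Their promoters had a median GC content of 60.2% against 52.8%, and the part of base composition in the E2F share was not tested. A match is a description of the letters and not evidence of binding. The 11 tested genes with an E2F match had a median log2 difference of 0.38, and the 17 without had 0.39.

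Origin licensing genes comprised 10 members, 9 of them tested. Mcm6, a subunit of the helicase ring, had log2 signals of 2.0 and 1.59 on the wild-type and 2.63 and 2.72 on the transgenic arrays. The groups did not overlap, and the transgenic mean was 1.84-fold the wild-type mean (log2 difference 0.88 ± 0.15 SE, n = 2 per group, 95% interval 1.41-fold to 2.42-fold, adjusted p = 0.0686). Its probe lies at chr1:130228178-130228237 in mm9, the build of the array's coordinates. Cdt1, which brings the helicase to origins and is destroyed once S phase begins, stood at 0.68 and 0.65 in the wild-type and at 1.72 and 1.3 in the transgenic samples. Both transgenic arrays were well above a tight wild-type pair, for a ratio of 1.79-fold (0.84 ± 0.16 SE, adjusted p = 0.0784, probe at chr8:125096893-125096952). With normexp background correction Mcm6 (adjusted p = 0.0261) and Cdt1 (adjusted p = 0.0467) both passed.

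The 6 subunits of the helicase ring were all higher in the mean. Their transgenic means were 1.39-fold for Mcm2, 1.49-fold for Mcm3, 1.16-fold for Mcm4, 1.3-fold for Mcm5, 1.84-fold for Mcm6 and 1.31-fold for Mcm7. For 5 of the 6 the groups did not overlap, with both transgenic arrays higher, against 24.5% of all features. The exception was Mcm4, at 3.11 and 2.65 in the wild-type against 3.23 and 2.96 in the transgenic samples, where wild-type array 1 exceeded transgenic array 2. Adjusted p values of the 5 subunits other than Mcm6 ran from 0.239 to 0.558, so none of these differences passed. Wild-type array 1 was above wild-type array 2 for all 6, by 0.17 for Mcm5 at the least and by 0.55 for Mcm3 at the most. The gap between the transgenic arrays ran from 0.045 for Mcm7 to 0.30 for Mcm3. Orc6, a subunit of the origin recognition complex, had a difference of 0.26 ± 0.09 SE (adjusted p = 0.234).

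Cdc6, the other loader of the helicase, went against the rest through 1 array. Its probe with the highest mean gave 0.06 on wild-type array 1, -2.73 on wild-type array 2, and -2.38 and -2.72 on the transgenic arrays. Wild-type array 1 thus stood far above 3 arrays that lay close together, and the difference of -1.21 ± 0.88 SE (adjusted p = 0.494) rested on it: without that array the difference was 0.18. The second Cdc6 probe gave -3.08 and -3.02 in the wild-type and -2.79 and -2.99 in the transgenic samples, a difference of 0.16. Wild-type array 1 was likewise more than 2 log2 units above the other 3 arrays for 144 features, while the wild-type array 2 count was 24 and the transgenic counts were 38 and 7.

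Helicase activation genes had 4 tested members. Mcm10, which helps to start the fork, was at -0.54 and -0.63 on the wild-type and at 0.02 and -0.0037 on the transgenic arrays. Replicates lay close to each other, and the ratio was 1.51-fold (0.59 ± 0.13 SE, adjusted p = 0.10). The GINS subunit Gins2 had signals of -0.83 and -1.20 against -0.21 and -0.46, a ratio of 1.60-fold (adjusted p = 0.161). Gins1, of the same complex, gave 1.59-fold (adjusted p = 0.239), with the wild-type arrays at -1.36 and -1.99 and the transgenic arrays at -0.98 and -1.04. The groups did not overlap for either GINS gene, with both transgenic arrays higher, as was so for 24.5% of all features. Cdc45, the third part of the active helicase, was dim, with a difference of 0.28 ± 0.26 SE that turned to -0.060 with normexp correction.

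Genes of synthesis at the fork had 9 tested members with transgenic means of 1.02-fold to 1.87-fold. Pole, the catalytic subunit of the polymerase that copies the leading strand, was the highest of them. It gave -0.85 and -0.90 in the wild-type and -0.11 and 0.17 in the transgenic samples (log2 difference 0.90 ± 0.15 SE, 95% interval 1.43-fold to 2.45-fold, adjusted p = 0.0654, probe at chr5:110766375-110766434). Both transgenic values exceeded a wild-type pair that differed by little. Another Pole probe was above background on wild-type array 1 alone, at -2.44 against -6.98, -7.03 and -6.99 on wild-type array 2 and the transgenic arrays, and the third was not above background on any array.

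The lagging strand polymerase was measured through Pold1, its catalytic subunit, at 1.11 and 1.12 against 1.19 and 1.09. Here the groups overlapped, and the 95% interval of 0.853-fold to 1.21-fold left out the size of the difference seen for Pole. Whether Pole and Pold1 differ in response was not tested. Pcna, the sliding clamp, was at 3.95 and 3.68 against 4.06 and 3.97, a ratio of 1.15-fold (adjusted p = 0.413). The flap endonuclease Fen1, which trims Okazaki fragments, gave 1.0 and 1.0 against 1.27 and 1.41, with no overlap and a ratio of 1.27-fold (0.34 ± 0.10 SE, adjusted p = 0.181). Lig1, the ligase that joins those fragments, stood at 1.18-fold (adjusted p = 0.301). The primase subunit Prim1 and its partner polymerase Pola1 had ratios of 1.31-fold and 1.21-fold, with wild-type array 2 as the low value in each. The clamp loader subunits Rfc3 and Rfc4 had overlapping groups on the probes used, with ratios of 1.07-fold and 1.09-fold. A second, dimmer Rfc4 probe gave -0.97 and -1.18 in the wild-type against -0.89 and -0.72 in the transgenic samples, a difference of 0.27 without overlap.

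**Figure D2:**
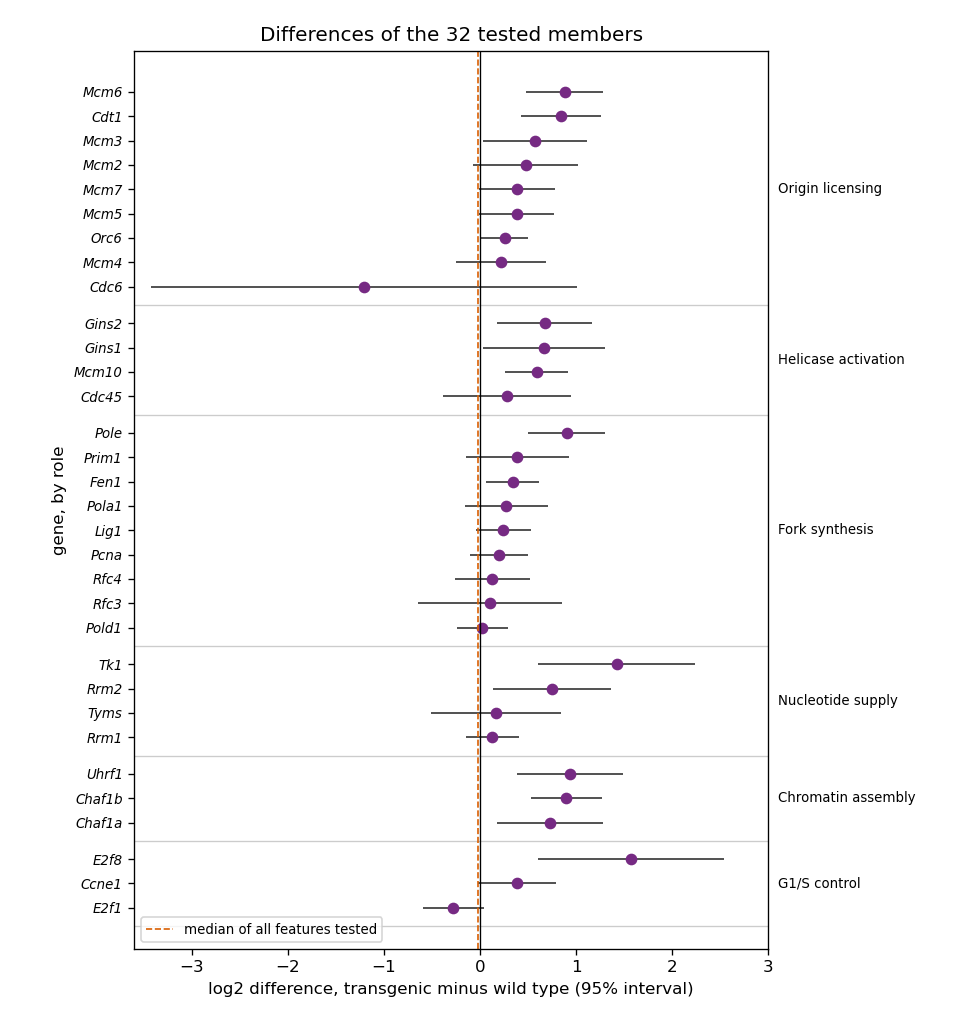
Log2 difference, transgenic minus wild type, of the 32 tested genes by role, with 95% intervals from the limma fit as lines and the median of all features tested (-0.016) as a dashed line. The intervals lay wholly above 0 for 16 genes, wholly below 0 for none of the 32, and across 0 for the other 16.

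Of the nucleotide supply genes all 4 were tested and none passed. Thymidine kinase Tk1, the cytosolic salvage enzyme made in S phase, was at -1.03 and -1.44 on the wild-type and at -0.24 and 0.62 on the transgenic arrays. The ratio of 2.68-fold was one of the 2 above 2-fold (log2 difference 1.42 ± 0.32 SE, 95% interval 1.53-fold to 4.70-fold, adjusted p = 0.110, probe at chr11:117676845-117676904), and transgenic array 2 exceeded transgenic array 1 by 0.86. Rrm2, the subunit of ribonucleotide reductase whose level follows the cell cycle, gave 0.98 and 0.45 against 1.22 and 1.71, a ratio of 1.68-fold (adjusted p = 0.192). Its partner Rrm1 was at 1.09-fold (adjusted p = 0.548), the transgenic arrays at 1.56 and 1.69 lying just above the wild-type values of 1.55 and 1.44. Thymidylate synthase Tyms had overlapping groups, at -2.66 and -2.21 against -2.45 and -2.09.

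Chromatin assembly at the fork gave the lowest p of the set. Chaf1b, a subunit of the histone chaperone CAF-1, was at -0.11 and -0.13 on the wild-type and at 0.63 and 0.93 on the transgenic arrays. The wild-type pair was tight, both transgenic arrays were above it, and the ratio was 1.87-fold (log2 difference 0.90 ± 0.14 SE, 95% interval 1.45-fold to 2.39-fold, adjusted p = 0.0560, probe at chr16:93906219-93906278). The second Chaf1b probe differed by 1.03, and with the mean over probes Chaf1b passed (adjusted p = 0.0458). Chaf1a, the large subunit of the same complex, was at -1.64 and -1.5 against -1.08 and -0.60, a ratio of 1.66-fold (adjusted p = 0.169). Uhrf1, which guides DNA methylation to newly copied strands, was at -0.05 and -0.43 against 0.46 and 0.92, a ratio of 1.91-fold (0.93 ± 0.21 SE, adjusted p = 0.114). For each of the 3 genes transgenic array 2 was the highest array.

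Of the genes of G1/S control 3 were tested and none passed. E2f1, an activator of this gene programme, was the member with a lower signal on both transgenic arrays, at 2.48 and 2.26 in the wild-type and 2.19 and 2.0 in the transgenic samples (log2 difference -0.28 ± 0.12 SE, adjusted p = 0.300). E2f8, a repressor that is itself switched on in S phase, had signals of -4.49 and -4.42 against -3.33 and -2.42, a ratio of 2.98-fold (1.58 ± 0.38 SE, adjusted p = 0.125). Wild-type array 1 was not well above background for E2f8, and with normexp correction the difference was 0.31. Cyclin E1, Ccne1, was at 0.47 and 0.09 against 0.64 and 0.69, a ratio of 1.31-fold (adjusted p = 0.273). Its second probe differed by 1.41, with wild-type array 1 below background.

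Over the arrays, the members did not follow genotype alone. Taken as the median deviation from each gene's mean, they lay at -0.048 and -0.39 on the wild-type arrays 1 and 2, and at 0.19 on both transgenic arrays. Wild-type array 1 exceeded wild-type array 2 for 26 of the 32, with a median gap of 0.31 between those arrays, of similar size to the difference of 0.39 between genotypes. Over all features wild-type array 1 was the higher for 12890 of 24518, and the median of array 2 minus array 1 was -0.021. Leaving out wild-type array 2 gave a median difference of 0.30, and leaving out wild-type array 1 gave 0.58. Of the transgenic arrays, array 2 was the higher for 2 of 9 licensing, 0 of 4 helicase activation, 5 of 9 synthesis, 4 of 4 nucleotide, 3 of 3 chromatin assembly and 2 of 3 control genes, against 12467 of all 24518 features. A difference between roles was not tested.

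**Figure D3:**
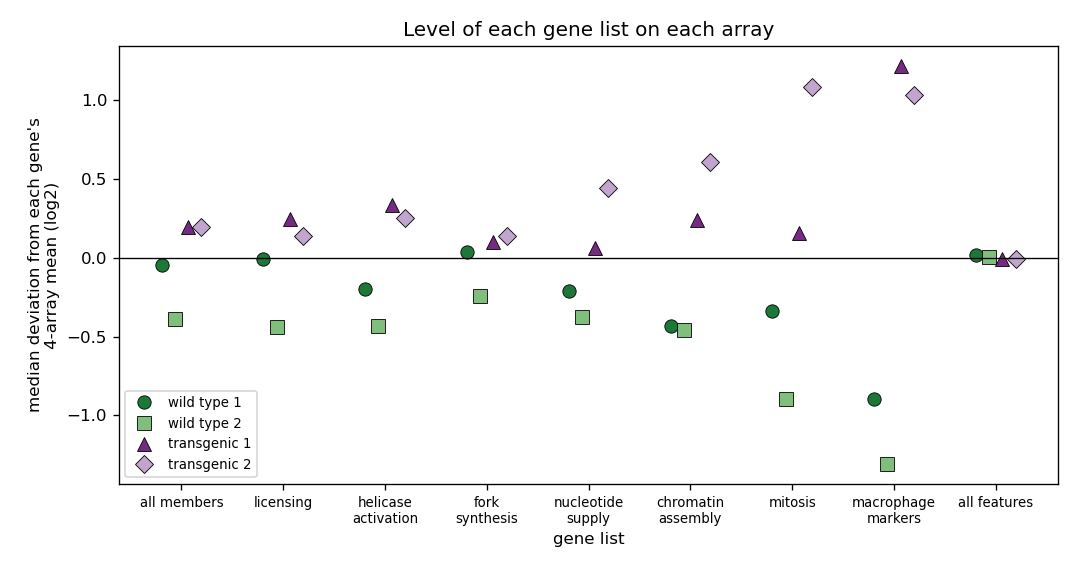
Median deviation of each gene list from its genes' 4-array means (y axis, log2), for each array. Mitosis genes and macrophage markers are spread over a wider range than the replication genes, and transgenic array 2 stands above transgenic array 1 for mitosis, nucleotide supply and chromatin assembly.

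Mitosis genes, the part of the cell cycle programme closest to this one, had larger differences and a larger spread. Of 27 tested, none passed, and the median difference was 1.25. An unadjusted p under 0.05 was reached by 16 of 32 replication genes and 21 of 27 mitosis genes, all higher. Of all features 9.25% were higher at that p. The groups did not overlap for 23 mitosis genes, all higher, against 24.5% of all features. Mki67, the proliferation marker, was at 1.03 and 0.64 in the wild-type and 1.64 and 2.63 in the transgenic samples, a ratio of 2.47-fold (1.31 ± 0.34 SE, adjusted p = 0.141). Topoisomerase Top2a gave -1.82 and -2.01 against -0.64 and 0.28, a ratio of 3.32-fold (adjusted p = 0.0765), and cyclin A2, Ccna2, a ratio of 2.37-fold (adjusted p = 0.153). The spindle checkpoint kinase Bub1b stood at 4.40-fold (adjusted p = 0.0788), having passed the filter through the transgenic arrays alone, and Birc5, a subunit of the chromosomal passenger complex, at 2.47-fold (adjusted p = 0.102). Transgenic array 2 exceeded transgenic array 1 for all 27 tested mitosis genes, with a median gap of 0.93, against 16 of 32 replication genes with a median gap of 0.01. The difference between the lists was not tested.

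Other replication genes had smaller differences. Of 40 tested none passed in the limma fit (7 had an unadjusted p under 0.05, all higher, where 9.25% of all features were higher at that p), and the median difference was 0.11, with 25 higher and 15 lower in the mean. Of the 40, 5 had passed the filter through the transgenic arrays alone, some of those 7 among them. The median over the 35 that were above background on all 4 arrays was 0.056. The lowest p belonged to Timeless, a fork protection protein, at 0.25 and 0.55 against 1.26 and 1.15 (ratio 1.75-fold, 0.81 ± 0.14 SE, adjusted p = 0.0681). Pclaf, a partner of the sliding clamp, stood at 1.26-fold (adjusted p = 0.154), and Dbf4, which activates the kinase that fires origins, at 1.82-fold (adjusted p = 0.171). Of 9 other genes of chromatin assembly none passed (2 had an unadjusted p under 0.05, both higher), with Hat1 at 1.28-fold, Asf1b at 2.10-fold and Slbp at 1.22-fold. Among 19 other genes of nucleotide metabolism none passed (2 had an unadjusted p under 0.05, both lower, where 9.76% of all features were lower at that p), and the median was -0.11. Samhd1, which breaks down deoxynucleotides, gave 5.68 and 5.41 against 4.68 and 4.97, 1.65-fold lower in the mean (adjusted p = 0.0890). Ctps, which makes cytidine nucleotides, was 1.26-fold lower (adjusted p = 0.213), and Dck, a kinase that salvages deoxycytidine, was 1.51-fold higher (adjusted p = 0.320) and had passed the filter through the transgenic arrays alone.

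In G1/S control outside the 34 genes, 1 of 20 tested genes passed. Cyclin D3, Ccnd3, which links growth signals to the retinoblastoma protein, fell from 5.66 and 5.51 in the wild-type to 4.97 and 4.92 in the transgenic samples (log2 difference -0.64 ± 0.09 SE, 1.56-fold lower, adjusted p = 0.0488). Quantile normalization (adjusted p = 0.0514), normexp with quantile normalization (adjusted p = 0.0546), no intensity trend (adjusted p = 0.153), the authors' value table (adjusted p = 0.0509) and leaving out transgenic array 1 (adjusted p = 0.211) or 2 (adjusted p = 0.242) ended this call. Cyclin D1, Ccnd1, was 1.40-fold lower in the mean (adjusted p = 0.103), with 1.04 and 1.07 against 0.62 and 0.51. Myc, a driver of cell growth, differed by 0.17 (adjusted p = 0.392), and E2f3, an activator like E2f1, by 0.49 (adjusted p = 0.105). The median over these 20 genes was 0.04.

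**Figure D4:**
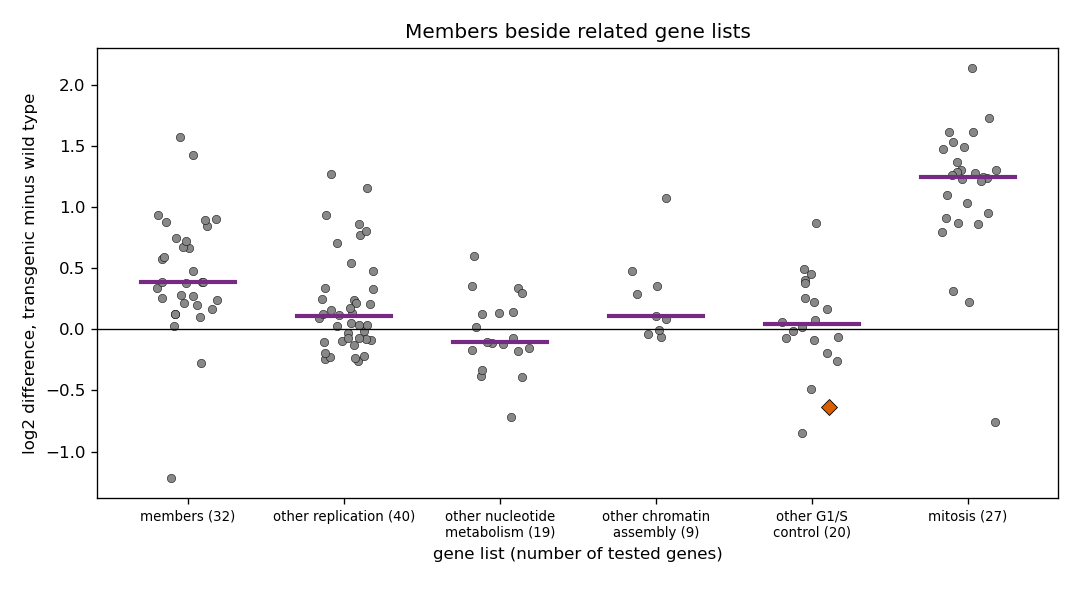
Log2 difference, transgenic minus wild type (y axis), of each tested gene in the replication and G1/S set and in 5 related lists. Purple bars are list medians, from -0.11 for nucleotide metabolism to 1.25 for mitosis, and the orange diamond is Ccnd3, the gene in these lists with an adjusted p under 0.05.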

How the data were processed

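RNA was labelled with Cy3 and hybridised to 1 array per sample, per the labels' protocols. The deposited intensity of each spot was background-subtracted and detrended within the array by Agilent Feature Extraction 10.7.3.1, per the file headers. The authors also deposited a value table in log2 units, with no account of its making in the sources used. Its columns correlated at 0.9998 to 1.000 with the centred scanner values, and its medians were 0.193, -0.021, -0.045 and 0.019. Flagged and control spots were left out and spots of a probe averaged in log2, after which the 75th percentile over spots of each array was subtracted. RefSeq accessions named 26582 probes. Each gene was represented by its brightest probe, and testing required a signal well above background on both arrays of 1 group or more. The comparison used limma 3.58.1 under R 4.3.3 (intensity trend, 2-sided, Benjamini-Hochberg over 24518 features). Precision is limited by having 2 arrays in a group: the median SE was 0.18, and exact permutation for one gene reaches no p below 0.333. The slide and the scan were shared by the 4 arrays. The genes and lists were chosen with earlier results of these data known. Named genes were the 34 members, per related list the called genes or the 3 with the smallest p, and 5 common proliferation genes. Asf1b and Hat1 are of the second kind. Of the cell type markers, only some progenitor markers, Adgre1 and Itgam are named, and the other markers enter through counts and medians. Exons and untranslated regions in mm9 were not analysed here.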

Additional observations from a re-analysis of the deposited data

How the results depend on the processing

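The median difference of the replication genes stayed between 0.34 and 0.41 in the 12 alternatives with all arrays and ran from 0.30 to 0.58 with an array left out, and 25 of 32 genes kept their direction in every alternative. The number of replication genes called was 0 in the main fit and in most alternatives. It was 3 with normexp correction (Cdt1, Chaf1b and Mcm6), 4 with no filter on dim probes (Pole as well), 1 with the mean over probes, and 0 to 3 with an array left out. Features called were 423, against 695 with no filter, 0 with no intensity trend (11 of the 32 genes then had an unadjusted p under 0.05) and 90 to 3998 with an array left out. With no intensity trend 4124 of all 24518 features had an unadjusted p under 0.05 in either direction, and the 11 genes were all higher. With the replicate number as a block 774 features and 3 of the genes (Cdt1, Chaf1b and Mcm6) were called. The labels do not say what a number shares, so the block was not used in the main fit. Same-numbered arrays' deviations correlated at 0.0032 over features, which with 2 arrays per group cannot tell whether a number shares anything. Normexp turned Cdc45 to -0.060 and Tyms to -0.056, and the cause was not tested. With an array left out, the differences ran from -2.60 to 0.18 for Cdc6, -0.062 to 0.39 for Tyms, -0.015 to 0.45 for Mcm4, -0.26 to 0.47 for Rfc3, -0.051 to 0.31 for Rfc4 and -0.023 to 0.071 for Pold1. A slide or scan block could not be fitted, since there was 1 of each.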

Other observations

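The same letters were counted in the promoters of the related lists. Of 25 mitosis genes with a promoter in the RefSeq table, 1 held an E2F match, 20 held CCAAT and 19 held TTTGAA or TTCGAA, the letters of the cell cycle homology region known from G2/M genes. Among the 29 replication genes these counts were 12, 18 and 6, and over all 27025 genes CCAAT was in 41.1% and the cell cycle homology letters in 21.7%. The other replication genes held an E2F match in 11 of 34 and the other G1/S control genes in 7 of 15. No match was found in the 16 promoters of other nucleotide metabolism genes. Differences between the lists were not tested. These are counts of letters on both strands and say nothing of which factor binds.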
